A study of Mus musculus with 4 samples.

Results

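The genes described here are the Nduf genes, which encode nuclear subunits of respiratory complex I and factors that assemble it. They were taken as every probe whose symbol in the platform's annotation starts with Nduf. The fit held 17735 symbols, counting the blank of unnamed probes as a symbol, and 38 of them were Nduf genes. Their probes were 42 of the 26423 in the table. Of these, 38 probes (34 genes) were for subunits named Ndufa, Ndufb, Ndufc, Ndufs or Ndufv, and 4 probes (4 genes) were for assembly factors named Ndufaf. All 42 were above 0 on every array and entered the fit. All samples were of 3T3-L1, an established mouse line of fibroblast-like fat cell precursors. Both groups were induced to become adipocytes for 48 hours with a mixture of insulin (1 µg/ml), dexamethasone (1 µM) and isobutylmethylxanthine (0.5 mM). To the 2 berberine samples the plant alkaloid berberine was added at 13.47 µM. The 2 control samples are named only as control in their titles, and were taken to have the mixture without berberine. The treatment text in the labels is the same for all 4 samples and does not tell the groups apart. The comparison asks how berberine changed expression of these genes during induced differentiation. Uninduced cells were not analysed here. Whether the 2 samples of a group are separate cultures is not stated, so the p-values speak only to the spread among the 4 arrays, and part or all of that spread may be technical.

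Complex I is the largest enzyme of the respiratory chain. It passes electrons from NADH to ubiquinone and pumps protons across the inner mitochondrial membrane, with a peripheral arm in the matrix that holds the flavin and iron-sulfur clusters and a membrane arm that holds the proton channels. Core subunits carry out the reaction, accessory subunits surround them, and assembly factors build the enzyme without staying in it. Mitochondria become more abundant as preadipocytes turn into adipocytes, and berberine is known to inhibit complex I in isolated mitochondria.

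Values are quantile-normalized log2 intensities unless named otherwise, changes are berberine minus control on the log2 scale, and a probe is called lower or higher where its adjusted p from limma over all 26408 fitted probes is under 0.05. Log2 intensities correlated across probes at r = 0.994 between the berberine arrays and 0.991 between the control arrays, and at 0.912 to 0.918 between arrays of different groups. The labelled cell type was checked against markers, whose counts stand beside 17.7% of all probes lower and 27.1% higher. Of 9 adipocyte marker probes 6 were lower and 0 higher, and their summed intensity was 30536 and 33679 on the berberine arrays and 583733 and 559904 on the control arrays. Of 7 preadipocyte and fibroblast probes, with sums of 61662 and 58564 with berberine and 106951 and 101730 in control, 3 were lower and 3 higher. Of 7 macrophage marker probes 2 were lower and 1 higher, with sums of 3700 and 3581 with berberine and 11525 and 10290 in control. Only 2 of these 7, among them Adgre1, a defining macrophage gene, were under the floor in both groups. Endothelial probes (3 of 7 higher) summed to 1660 and 1553 with berberine and 1098 and 1135 in control, and muscle probes (1 of 2 higher) to 1640 and 1679 with berberine and 1131 and 796 in control. The floor, under which a level was treated here as not usable, was the 25th percentile of an array's values (6.57 on the log2 scale). It was a chosen cut, as no detection call was available. The part of these marker changes in the results below was not tested, and in such bulk samples fewer cells of a type and less RNA per cell cannot be told apart.

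Complex I subunit probes were mostly lower with berberine, by amounts that ranged from slight to over 80-fold. Of the 38 subunit probes 21 were lower (55.3%), 3 were higher (7.89%) and 14 did not pass, where 17.7% of all probes were lower and 27.1% higher. Both berberine arrays were below both control arrays at 29 subunit probes (76.3%), against 28.2% of all probes. Both lay above both control arrays at 5 subunit probes (13.2%), against 46.6% of all probes. With at least a 2-fold change in addition, 13 were lower and 1 higher, against 11.1% and 10.8% of all probes. At least 8-fold falls were seen at 5 subunit probes (13.2%), against 2.9% of all probes. The median change of the subunit probes was -0.54, with a middle range (25th to 75th percentile) of -1.76 to -0.22, and that of all probes was 0.17. The members were chosen with earlier results of these data known, so these shares are descriptions.

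**Figure D1:**
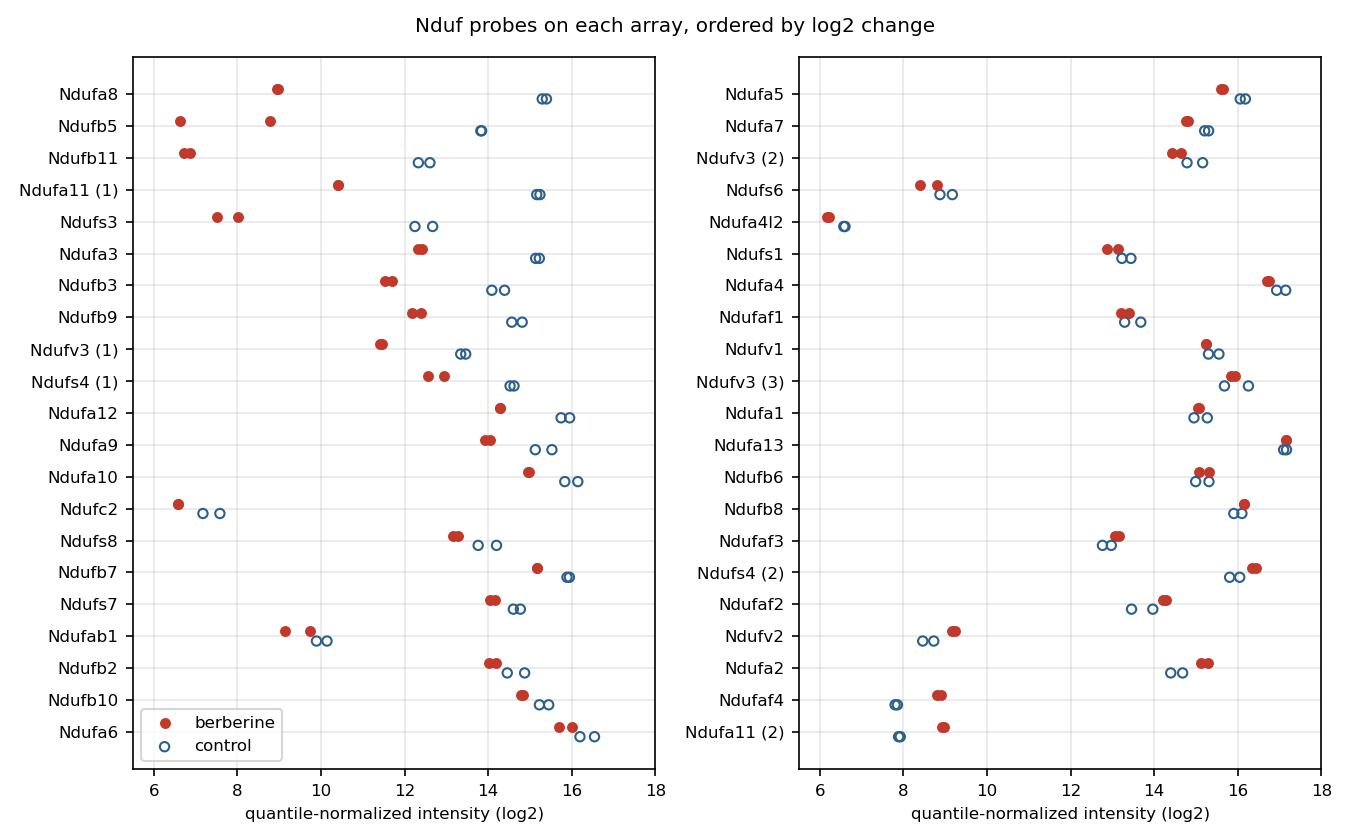
Each row is 1 Nduf probe, ordered from the largest fall to the largest rise, and the x axis is its quantile-normalized log2 intensity on each of the 4 arrays, with filled points for berberine and open points for control. Numbers in brackets tell probes of 1 gene apart. The first 13 probes fell at least 2-fold, and Ndufaf4 and the second Ndufa11 probe, at the bottom, rose at least 2-fold.

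The bright probes gave a similar picture. Of the 31 subunit probes with a mean over all arrays above log2 10, 18 were lower and 1 higher, against 23.0% and 37.7% of all probes at that level. Falls of at least 8-fold were at 4 of the 31, against 3.9% of all probes at that level. Without Ndufa4 and Ndufa4l2, which are not assigned to complex I, 20 of 36 subunit probes were lower and 3 higher.

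How many subunit probes were called depended on how arrays were scaled, while 11 were called lower in each of the 4 scalings. In the deposited intensities without scaling 16 subunit probes were lower and 0 higher, against 16.2% and 9.07% of all probes, and 0 subunit probes were called higher in all 4 scalings. After each array was centred on its median 11 were lower and 9 higher, against 12.5% and 40.5% of all probes. After scaling on the 75th percentile 13 were lower and 4 higher, against 14.0% and 21.1%. The median change of all probes was -0.05, 0.52 and 0.26 in these 3 scalings, and that of the subunit probes was -0.47, 0.10 and -0.16. Relative to all probes the subunit median was 0.42 lower in the deposited intensities, and 0.71 lower after quantile normalization. Centring and 75th-percentile scaling shift all probes of an array by the same amount, so the 0.42 is the same there by construction. The 11 probes lower in all 4 scalings (28.9% of subunit probes, against 12.5% of all probes) were those of Ndufa3, Ndufa8, Ndufa12, Ndufb3, Ndufb5, Ndufb9, Ndufb11 and Ndufs3 and 1 probe each of Ndufa11, Ndufs4 and Ndufv3. Of all probes, 8.97% were higher in all 4. The same 11 were also lower with each array left out, as were 8.48% of all probes.

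**Figure D2:**
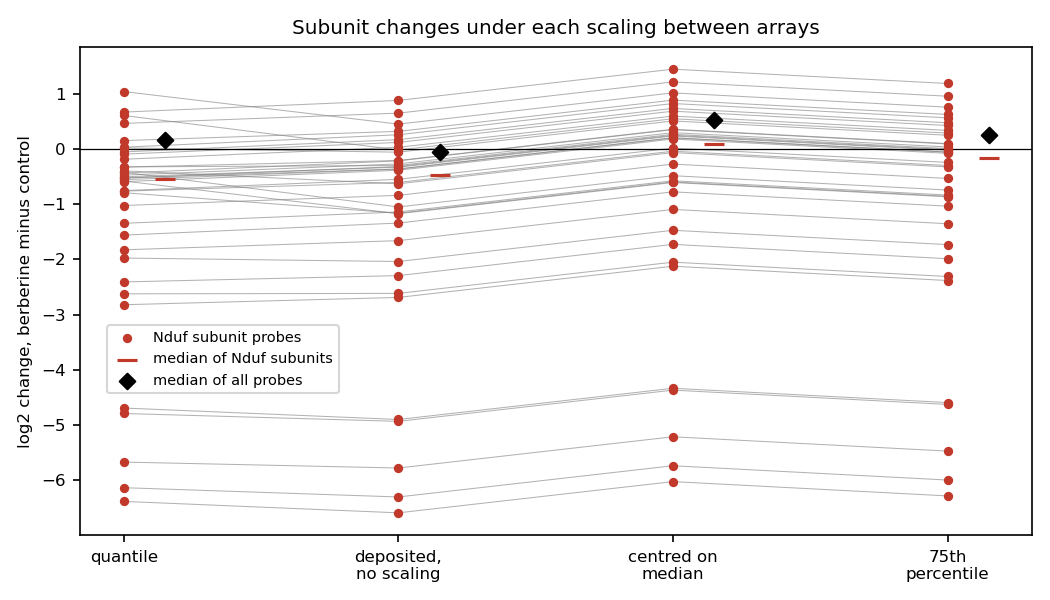
The change of each Nduf subunit probe (log2, berberine minus control, y axis) is joined by a line across 4 ways of scaling the arrays (x axis), with the medians of the subunit probes (dashes) and of all probes (diamonds). The 5 largest falls stay below -4 throughout, and the many probes near 0 cross it when arrays are centred on the median.

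Promoters of 3 of the genes with the largest falls and of the assembly factor that rose are shown because they hold the motifs searched. Sequences are from RefSeq (build GRCm38.p6), from 250 bases before to 50 after the gene's start, 5′ to 3′ on the gene's strand, with motif letters in capitals. The Ndufa8 promoter is at chr2:36049289-36049588 (minus strand), Ndufa11 at chr17:56717512-56717811 (plus), Ndufs3 at chr2:90904672-90904971 (minus) and Ndufaf4 at chr4:24897833-24898132 (plus).
Ndufa8: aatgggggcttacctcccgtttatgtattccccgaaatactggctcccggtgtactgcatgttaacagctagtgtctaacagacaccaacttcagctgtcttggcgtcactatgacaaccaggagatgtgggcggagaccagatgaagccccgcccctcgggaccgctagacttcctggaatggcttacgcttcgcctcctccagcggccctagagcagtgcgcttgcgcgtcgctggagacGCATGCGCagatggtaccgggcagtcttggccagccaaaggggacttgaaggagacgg
Ndufa11: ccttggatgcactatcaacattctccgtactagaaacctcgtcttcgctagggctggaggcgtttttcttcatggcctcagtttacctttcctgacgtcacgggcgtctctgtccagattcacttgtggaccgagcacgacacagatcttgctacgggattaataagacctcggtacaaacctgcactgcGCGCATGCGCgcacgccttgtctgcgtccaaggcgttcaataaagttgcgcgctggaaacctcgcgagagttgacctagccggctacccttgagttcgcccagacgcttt
Ndufs3: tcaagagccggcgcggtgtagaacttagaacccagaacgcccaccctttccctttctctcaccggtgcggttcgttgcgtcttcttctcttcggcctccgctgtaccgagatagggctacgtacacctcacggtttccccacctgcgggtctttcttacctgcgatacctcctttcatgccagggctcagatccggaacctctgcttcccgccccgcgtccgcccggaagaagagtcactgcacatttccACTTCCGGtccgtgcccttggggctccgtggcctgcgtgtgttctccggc
Ndufaf4: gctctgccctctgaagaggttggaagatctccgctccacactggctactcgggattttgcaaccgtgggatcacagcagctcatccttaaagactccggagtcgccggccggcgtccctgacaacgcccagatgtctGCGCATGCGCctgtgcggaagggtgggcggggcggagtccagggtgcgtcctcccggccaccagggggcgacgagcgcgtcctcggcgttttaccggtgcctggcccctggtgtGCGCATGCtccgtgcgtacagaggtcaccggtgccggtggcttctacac

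Motifs were searched on both strands as exact letters: GCATGCGC for nuclear respiratory factor 1, AAGATGGC for YY1, CCGGAAGT for ETS factors such as GABP, and TCAAGGTCA for estrogen-related receptors. In Ndufa11, and at the first of the matches in Ndufaf4, the first motif matches both strands with overlap, which gives a run of 10 capitals. Of the 38 Nduf genes 34 had a promoter in the table. The first motif was in 4 of these 34 (11.8%, against 3.05% of 27025 genes), namely Ndufa6, Ndufa8, Ndufa11 and Ndufaf4. The YY1 motif was in 6 (17.6%, against 3.19%), the ETS motif in 1 (2.94%, against 4.31%) and the last in 0 (against 0.47%). Genes with an at least 8-fold fall held the first motif in 2 of 5 and the YY1 motif in 0 of 5, and the other Nduf genes in 2 of 29 and 6 of 29. A match is a description of letters and not a site.

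Core subunits moved unequally, with 1 large fall among small changes. Of 6 measured core genes 3 were lower, 1 was higher and 2 did not pass, where 17.7% of all probes were lower and 27.1% higher. Ndufs3, a core subunit of the peripheral arm that joins early in assembly, was at 8.02 and 7.52 with berberine and at 12.67 and 12.25 in control. That is a fall of 25.8-fold (adjusted p = 0.000276, log2 change -4.69 with SE 0.24), and the groups lay far apart. Its deposited intensities were 197 and 175 with berberine and 7268 and 4215 in control.

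Both core subunits that hold the iron-sulfur clusters nearest the quinone site were slightly lower. Ndufs8 was at 13.28 and 13.15 with berberine and 14.20 and 13.76 in control (log2 change -0.76, SE 0.19, adjusted p = 0.0273). Ndufs7 was at 14.04 and 14.16 with berberine and 14.77 and 14.60 in control (log2 change -0.59, SE 0.13, adjusted p = 0.0218). The berberine values lay below both control values at each, but both calls were lost in the deposited intensities and the other scalings (log2 change 0.18 for Ndufs7 after centring), and without control replicate 1 or either berberine array.

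At the NADH end of the enzyme 1 of 3 subunits passed. Ndufv1, which binds NADH and the flavin, was at 15.24 on both berberine arrays and at 15.55 and 15.30 in control (log2 change -0.19, 95% interval -0.55 to 0.18, adjusted p = 0.338). Ndufs1, the largest iron-sulfur subunit, was at 12.88 and 13.14 with berberine and 13.44 and 13.23 in control (log2 change -0.33, 95% interval -0.74 to 0.08, adjusted p = 0.157). Neither passed, and neither interval reaches a 2-fold change, but Ndufv1 was called higher after centring (log2 change 0.60, adjusted p = 0.0429). Ndufv2, an iron-sulfur subunit next to Ndufv1, was dim and was called higher, at 9.17 and 9.23 with berberine and 8.46 and 8.73 in control (log2 change 0.61, adjusted p = 0.0254). The change was -0.017 in the deposited intensities, and the call was lost there, after 75th-percentile scaling, and without control replicate 1 or either berberine array.

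**Figure D3:**
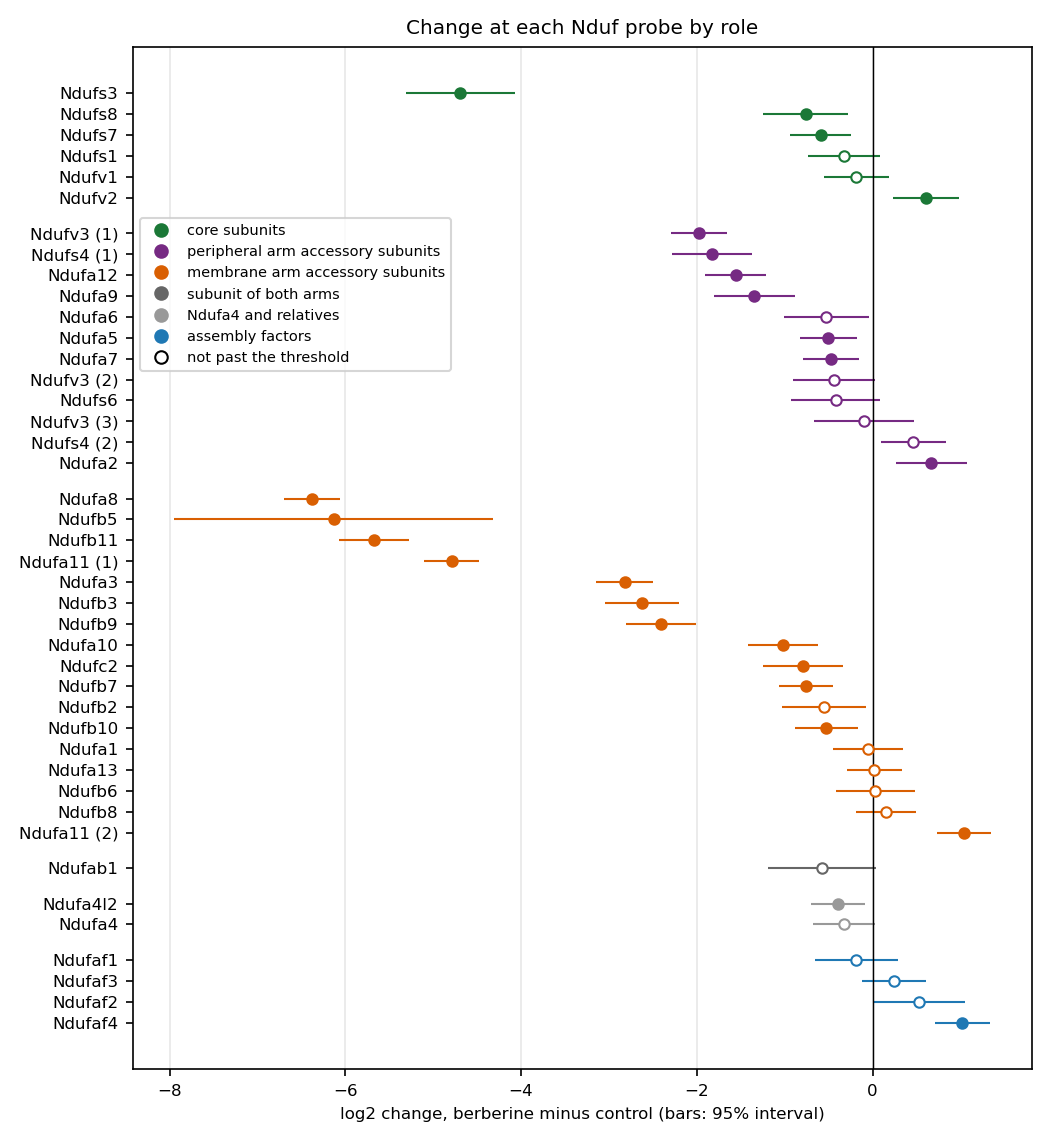
Log2 changes (berberine minus control, x axis) of the 42 Nduf probes are grouped by role, with 95% intervals from limma and open points for probes that did not pass. Of the 5 falls beyond 8-fold, 4 belong to membrane arm accessory subunits and 1, Ndufs3, to the core.

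Of the 5 falls of at least 8-fold, 4 were in accessory subunits of the membrane arm. Of 17 probes (16 genes) 11 were lower (64.7%), 1 was higher (5.88%) and 5 did not pass, with a median change of -0.79. Of all probes 17.7% were lower and 27.1% higher. Ndufa8, a subunit on the intermembrane space side, was at 8.95 and 8.97 with berberine and 15.29 and 15.40 in control. Its fall of 83.3-fold (adjusted p = 5.77e-05, log2 change -6.38 with SE 0.12) was seen as deposited intensities of 375 and 432 with berberine against 41865 and 35817 in control. Ndufb11, an X-linked subunit, was at 6.87 and 6.73 with berberine and 12.61 and 12.33 in control, a fall of 50.9-fold (adjusted p = 7.56e-05, log2 change -5.67 with SE 0.15) down to just above the floor.

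The fall at Ndufb5 was of similar size and far less precise. It was at 6.62 and 8.79 with berberine and at 13.84 and 13.83 in control (log2 change -6.13, SE 0.70, adjusted p = 0.00261). The berberine arrays differed by over 2 on the log2 scale, the first lying just above the floor, yet both lay far below control.

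Medium falls followed at small membrane subunits. Ndufa3 was at 12.31 and 12.41 with berberine and 15.22 and 15.14 in control, a 7.06-fold fall (adjusted p = 0.000197). Ndufb3 was at 11.53 and 11.71 with berberine and 14.39 and 14.09 in control, a 6.16-fold fall (adjusted p = 0.000465). Ndufb9, a protein of the LYR motif family, was at 12.18 and 12.38 with berberine and 14.81 and 14.57 in control, a 5.30-fold fall (adjusted p = 0.000519). In all of these the groups were separated by several times the gap between arrays of a group. Ndufa10, related to nucleoside kinases, was at 14.95 and 14.99 with berberine and 15.83 and 16.15 in control, a 2.03-fold fall (adjusted p = 0.00607) whose call was lost without either berberine array, after centring and after 75th-percentile scaling.

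Apart from Ndufa11, which has 2 probes and is described with the genes of several probes, the other membrane arm probes changed by less than 2-fold. Ndufb7, Ndufb10 and Ndufc2 fell by 0.75, 0.53 and 0.79 on the log2 scale (adjusted p = 0.00695, 0.0329 and 0.0199), the Ndufc2 probe lying close to the floor with berberine. The Ndufb7 and Ndufb10 calls were lost in the other 3 scalings and the Ndufc2 call after centring, and without either berberine array all 3 were lost. Ndufb2 had a log2 change of -0.55 and did not pass (adjusted p = 0.0643). Ndufa13, also known as GRIM-19, was at 17.16 and 17.15 with berberine and 17.10 and 17.17 in control (log2 change 0.02, 95% interval -0.29 to 0.33). Ndufa1, Ndufb6 and Ndufb8 had changes of -0.05, 0.03 and 0.15 and did not pass (adjusted p = 0.810, 0.892 and 0.393). These 3 and Ndufa13 were called higher after centring.

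Among accessory subunits of the peripheral arm, of 12 probes (9 genes) 6 were lower, 1 was higher and 5 did not pass. Their median change was -0.49, with 0 falls of at least 8-fold. Across all probes, 17.7% were lower, 27.1% higher and 2.9% lower by at least 8-fold, so that few or no such falls would be seen in most sets of 12 probes. Whether the arms differ was not tested. Ndufa12, a subunit that takes the place of the assembly factor Ndufaf2 late in assembly, was at 14.29 on both berberine arrays and at 15.95 and 15.75 in control, a 2.95-fold fall (adjusted p = 0.00113). Ndufa9, a subunit near the quinone site, was at 14.04 and 13.92 with berberine and 15.53 and 15.13 in control, a 2.54-fold fall (adjusted p = 0.00396) whose call was lost after centring and without either berberine array. Both genes were lower on each berberine array than on each control array.

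Ndufa5 and Ndufa7 fell by 0.50 and 0.47 on the log2 scale (adjusted p = 0.0279 and 0.0320), and each was lower in 1 of the 4 scalings and lost its call without control replicate 2 or either berberine array. Ndufa6 (log2 change -0.52, adjusted p = 0.0773) and Ndufs6 (log2 change -0.42, adjusted p = 0.145) did not pass, though Ndufs6 did in the deposited intensities. Ndufa2, a subunit with a thioredoxin fold, was higher, at 15.13 and 15.29 with berberine and 14.68 and 14.40 in control (log2 change 0.67, adjusted p = 0.0234), and higher in 3 of the 4 scalings. Its call was lost in the deposited intensities, without control replicate 2 and without either berberine array (adjusted p = 0.0650, 0.113 and 0.153 in these fits with an array left out). Ndufab1, the mitochondrial acyl carrier protein, which is found in both arms, had a log2 change of -0.58 and did not pass (adjusted p = 0.107), and was called lower in the deposited intensities (log2 change -1.17, adjusted p = 0.0441). Of the pair no longer counted as or never assigned to complex I, Ndufa4, now assigned to cytochrome c oxidase, was at 16.70 and 16.74 with berberine and 17.15 and 16.93 in control (adjusted p = 0.116). Its relative Ndufa4l2 was called lower (adjusted p = 0.0490) with a mean of 6.19 under the floor with berberine and 6.59 at it in control, so that no fold can be read.

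Genes with more than 1 probe did not move alike at all of them. Ndufa11, a membrane arm subunit related to mitochondrial import proteins, was at 10.41 and 10.42 with berberine and 15.16 and 15.24 in control at probe PH_mM_0013802, a 27.6-fold fall (SE 0.12 on log2, adjusted p = 7.13e-05). At probe PH_mM_0005099 it was at 8.97 and 8.92 with berberine and 7.93 and 7.89 in control, a 2.06-fold rise (adjusted p = 0.00261) that did not pass in the deposited intensities. Opposite calls were thus made for 1 gene on the same arrays.

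Ndufs4, a subunit of the peripheral arm whose loss in mice gives a Leigh-like disease, fell 3.54-fold at probe mMR028822 (adjusted p = 0.00153), with arrays at 12.55 and 12.94 with berberine and 14.52 and 14.62 in control. At probe mMC023978 it was at 16.44 and 16.34 with berberine and 15.81 and 16.05 in control (log2 change 0.46, adjusted p = 0.0524), and was called higher after centring and after 75th-percentile scaling. The Ndufv3 gene makes a short and a long protein by splicing. It fell 3.93-fold at probe PH_mM_0003914, with 11.41 and 11.45 with berberine and 13.34 and 13.46 in control (adjusted p = 0.000483). At probe PH_mM_0016212 the log2 change was -0.43 (adjusted p = 0.111) and at PH_mM_0016152 it was -0.09 (adjusted p = 0.759). Which transcripts each probe reads is not given in the sources used here. For the other genes whose platform symbol starts with Nduf 1 probe each was measured, so that their changes have no second probe to set beside them.

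**Figure D4:**
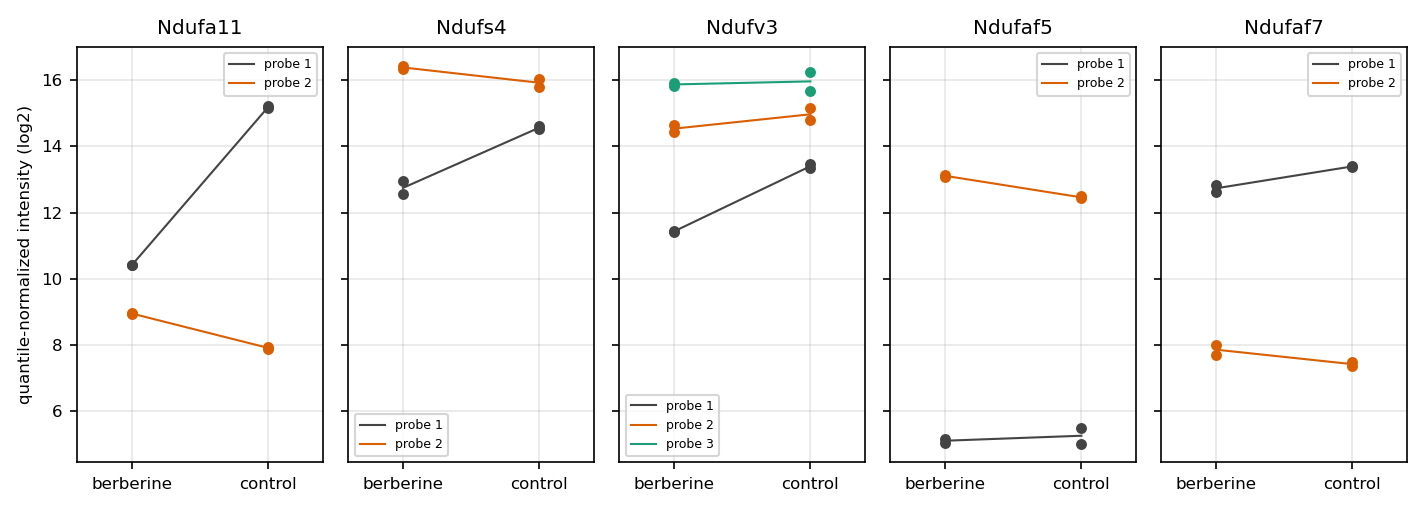
Quantile-normalized log2 intensity (y axis) on the berberine and control arrays is shown for genes with more than 1 probe, with points for arrays and lines between group means, 1 colour per probe. In Ndufa11, Ndufs4 and Ndufaf7 1 line is lower with berberine and the other higher, and the Ndufaf5 probe near 5 is under the floor.

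Of the 4 Ndufaf probes inside the rule 1 was higher and 0 were lower (limma), where 27.1% of all probes were higher and 17.7% lower. Both berberine arrays were above both control arrays at 3 of the 4, as at 46.6% of all probes. Whether they differ from the subunits was not tested. Ndufaf4, which acts early on the quinone part of the enzyme, was dim, at 8.89 and 8.81 with berberine and 7.80 and 7.86 in control, a 2.03-fold rise (log2 change 1.02, SE 0.12, adjusted p = 0.00291). The call was lost in the deposited intensities (358 and 386 with berberine and 289 and 255 in control) and without berberine replicate 1. Ndufaf3, its partner, was at 13.17 and 13.05 with berberine and 12.76 and 12.97 in control (log2 change 0.24, adjusted p = 0.220). It did not pass, and was called higher after centring (log2 change 0.92, adjusted p = 0.00856) and after 75th-percentile scaling (0.66, adjusted p = 0.0479).

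Ndufaf2, which resembles Ndufa12, was at 14.20 and 14.28 with berberine and 13.46 and 13.97 in control (log2 change 0.53, adjusted p = 0.0913). It did not pass, and it did with the replicate number as a block (adjusted p = 0.0383), without control replicate 2 and under 2 of the scalings. Ndufaf1, of the complex that builds part of the membrane arm, was at 13.40 and 13.20 with berberine and 13.29 and 13.68 in control (log2 change -0.19, 95% interval -0.66 to 0.28, adjusted p = 0.447), and its groups overlapped.

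A further 7 probes carry an older platform symbol whose current name starts with Nduf, and so fall outside the rule. Ndufb1, a membrane arm subunit, was at 6.01 and 6.15 with berberine, under the floor, and 10.63 and 10.37 in control, a fall of at least 15.2-fold (adjusted p = 0.000117). Ndufaf6 was at 13.22 and 13.07 with berberine and 12.18 and 12.43 in control (log2 change 0.84, adjusted p = 0.0100). Ndufaf5, which modifies Ndufs7, was higher at 1 probe (log2 change 0.65, adjusted p = 0.0114), and its other probe lay under the floor. Ndufaf7, an assembly factor, was lower at 1 probe (log2 change -0.66, adjusted p = 0.0153) and had a change of 0.44 that did not pass at the other (adjusted p = 0.0749). Ndufaf8 had a change of -0.62 and did not pass (adjusted p = 0.118).

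Assembly genes not named Nduf were measured at 12 probes for 10 genes, with a median change of -0.75. Of these probes 7 were lower (58.3%) and 0 higher, against 17.7% and 27.1% of all probes. Foxred1, an assembly factor, was lower at both its probes, with log2 changes of -4.38 and -2.38 (adjusted p = 7.95e-05 and 0.00133). Ecsit, a partner of Ndufaf1 in assembly, had means of 9.56 with berberine and 12.37 in control, a 6.99-fold fall (adjusted p = 0.000182). The subunits encoded by mitochondrial DNA were not analysed here. Among transcription factors and coactivators of nuclear respiratory genes, 4 of 11 probes were lower (36.4%) and 3 higher (27.3%). The share higher was near that of all probes. Gabpa, an ETS factor, fell by 1.63 on the log2 scale (adjusted p = 0.000782), its partner Gabpb1 had a log2 change of 2.11 at 1 of its 2 probes (adjusted p = 0.000584), and Nrf1 was lower at 1 of 3 probes, with berberine under the floor (adjusted p = 0.000564), and higher at another (adjusted p = 0.0151).

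Subunits of the other respiratory complexes and proteins of the mitochondrial ribosome were counted the same way. Of 42 probes for complexes II to V 19 were lower (45.2%) and 4 higher (9.52%), with a median change of -0.42. Falls of at least 8-fold were at 5 of these probes (11.9%), against 2.9% of all probes. Of 79 probes for mitochondrial ribosomal proteins 23 were lower (29.1%) and 14 higher (17.7%), with a median of -0.11. Of all probes 17.7% were lower and 27.1% higher. The share lower was 55.3% for Nduf subunits, and whether the lists differ was not tested.

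**Figure D5:**
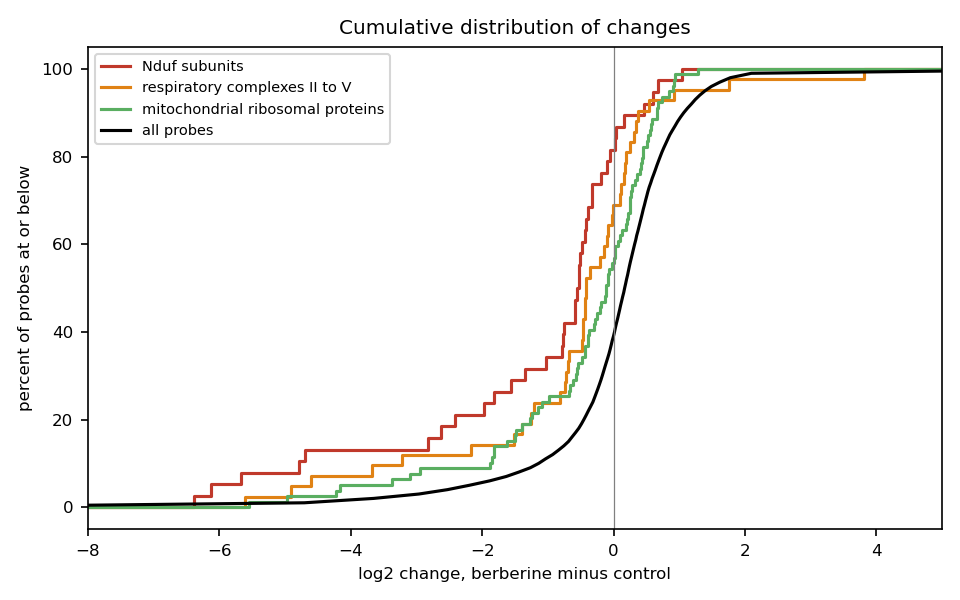
The curves give the percent of probes (y axis) at or below each log2 change (berberine minus control, x axis) for Nduf subunits, complexes II to V, mitochondrial ribosomal proteins and all probes. The medians are -0.54, -0.42, -0.11 and 0.17 in that order.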

How the data were processed

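Cy5-labelled RNA of each sample was hybridised to 1 array, per the labels' protocols. The files hold the authors' deposited intensities, whole numbers on a linear scale. The sources used here do not give the scanner, background correction or scaling, which leaves their zero point and scale unknown. Medians of the deposited intensities were 237 and 280 on the berberine arrays and 423 and 350 on the control arrays. After 15 probes without a positive intensity on every array were dropped, log2 intensities of 26408 probes were quantile-normalized with limma 3.58.1 in R 4.3.3, with no pseudocount. Groups came from the sample titles. Berberine was compared with control per probe (lmFit, eBayes; 2 residual and 2.89 prior degrees of freedom) with Benjamini-Hochberg adjustment over all probes. Exact permutation of 2 against 2 arrays cannot reach 0.05. Of the probes, 20377 had 1 gene symbol, 0 several and 6046 none here, and all 42 Nduf symbols matched a current RefSeq symbol. Nduf probes in full detail are the core subunits, all Ndufaf probes, genes with several probes and called probes with at least a 2-fold change, separate groups and a group mean above the floor. From each other list at most 3 called members are named. Lists, members, floor and motifs were chosen with earlier results of these data known. Precision is limited by the 4 arrays. Alternatives were 3 other scalings, the intensity trend, the replicate block, each array left out, a pseudocount of 16 and a floor filter.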

Additional observations from a re-analysis of the deposited data

How the results depend on the processing

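The count of lower subunit probes was 21, with 11 after centring on the median, 13 after scaling on the 75th percentile, 13 with at least a 2-fold change in addition, and 11 to 18 with each array left out (11 without either berberine array, the lone array being assumed to vary like the other group). Higher subunit probes numbered 3, with 0 in the deposited intensities, 9 after centring, 1 with at least a 2-fold change, 1 among probes above log2 10 and 1 to 3 with each array left out (1 without either berberine array). Higher assembly factor probes numbered 1, with 0 in the deposited intensities, 3 each after centring and after 75th-percentile scaling, and 0 to 2 with each array left out (0 without berberine replicate 1, 2 without control replicate 2). All probes past the threshold numbered 11838, with 6687 in the deposited intensities, 5806 with at least a 2-fold change and 4339 to 10772 with each array left out (4339 and 4621 without berberine replicate 1 or 2). The subunit median of -0.54 was -0.16 after scaling on the 75th percentile and 0.10 after centring. With each array left out it was -0.69 to -0.52. The median of all probes was 0.17, with 0.26 after 75th-percentile scaling and 0.52 after centring. Relative to all probes the subunit median was 0.71 lower after quantile normalization, and 0.42 lower in either of these scalings. The causes of all these moves were not tested.

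Among the 26 Nduf probes chosen for full detail signs turned at 7, of which Ndufs7 and Ndufv2 were called after quantile normalization. Of the other called Nduf probes 4 also turned after centring, Ndufb7 to 0.017, Ndufb10 to 0.25, Ndufa5 to 0.24 and Ndufa7 to 0.30, and Ndufa7 was at 0.038 after 75th-percentile scaling. In the deposited intensities Ndufv1 was at 0.032, Ndufv2 at -0.017 and Ndufv3 (PH_mM_0016152) at 0.12. After centring the values were 0.51 for Ndufaf1, 0.60 for Ndufv1, 0.18 for Ndufs7, 0.36 for Ndufs1, and 0.69 and 0.35 for Ndufv3 (PH_mM_0016152 and PH_mM_0016212). After scaling on the 75th percentile they were 0.25 for Ndufaf1, 0.34 for Ndufv1, 0.10 for Ndufs1, and 0.43 and 0.092 for these Ndufv3 probes. With each array left out Ndufaf1 was at -0.38 to 0.0071 (above 0 without control replicate 2) and Ndufv3 (PH_mM_0016152) at -0.38 to 0.19 (above 0 without control replicate 1). The replicate block gave 22 lower and 3 higher subunit probes, 2 higher assembly factor probes and 12760 probes in all. The numbers in the titles do not by themselves say whether same-numbered samples are paired. Same-numbered deviations correlated at 0.004 over probes, which cannot settle it with 2 arrays a group. Counting only probes above log2 10, and leaving out Ndufa4 and Ndufa4l2, were chosen after seeing the data. With 2 arrays a group, small changes have little support, and no detection call was available to set signal against background.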
